A study of Mus musculus with 4 samples.

Results

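Classical Ly6c2 monocytes with little C1q were taken from the single-cell RNA profiles of 4 libraries of sorted mouse heart cells. The members were chosen by measured values. A cell was a member when it held at least 2 UMIs (unique molecular identifiers, 1 per captured RNA molecule) of Ly6c2, at least 1 UMI of Plac8 and, summed over C1qa, C1qb and C1qc, fewer than 30 UMIs per 10000 UMIs of the cell. Among cells with 500 to 40000 UMIs and more than 200 genes, 2250 of 41533 cells were members, namely 825 of 10238 cells of the baseline library and 607 of 10396, 480 of 10782 and 338 of 10117 cells of infarct replicates 1, 2 and 3. The values of the members are given in that order throughout, the baseline library first. Since the gate read Ly6c2, Plac8 and C1q, the levels of those genes are descriptions of the choice and not results.

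The study asked how heterogeneous the macrophages of a healing infarct are. All mice were CSF1R-EGFP+ reporter animals of 12 to 16 weeks, which express EGFP from the Csf1r promoter. The baseline library had no surgery and pooled 3 hearts, and each infarct library held 1 heart taken 7 days after left coronary artery ligation, with the remote zone cut away before digestion. EGFP+ cells that lacked the neutrophil antigen Ly6G were sorted in every case, so the sort label of macrophage covers every Csf1r-expressing cell, and with 1 pooled baseline library no spread between baseline hearts could be measured.

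Classical monocytes leave the bone marrow through signals of the chemokine receptor Ccr2, circulate with high Ly6C on their surface, and enter inflamed tissue through adhesion molecules. In an infarct they are known to deliver proteases and cytokines early and then to differentiate into macrophages, losing Ly6C and gaining lysosomal, lipid-handling and complement genes such as C1q. At rest some classical monocytes convert in blood to non-classical monocytes under the nuclear receptor Nr4a1.

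The 4 libraries held between 71093963 and 97944428 UMIs. Members had a median of 8246, 9074, 8403.5 and 8347.5 UMIs in the baseline library and infarct replicates 1 to 3, and the C1q-positive cells of the same libraries, which reach 30 C1q UMIs per 10000, had 6621, 8644.5, 8556 and 8687. The median mitochondrial share of members lay between 2.21% and 2.94%. Each pair of libraries shared 26 to 34 cell barcodes, and no barcode belonged to a member in both libraries of a pair. Members had a median of 5 to 7 Ly6c2 UMIs, 23 to 31 Plac8 UMIs and 1.31 to 2.39 C1q UMIs per 10000, against 132 to 176 C1q UMIs per 10000 in C1q-positive cells.

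The classical monocyte markers that the gate did not read are Vcan, the matrix proteoglycan versican, Chil3, a secreted chitinase-like protein, and Hp, haptoglobin. They can vary from cell to cell with the genes of the gate. Their levels thus describe the members and are no independent check of the label. Vcan was at 340.3 CPM (UMIs per 1000000 summed UMIs, without mitochondrial genes) in baseline members and at 664, 506 and 365 CPM in the members of infarct replicates 1, 2 and 3, against 10.6, 27.1, 11.8 and 9.69 CPM in the C1q-positive cells of the same libraries. Chil3 was at 1117, 545, 623 and 861 CPM in members and at 32.5, 49.7, 21.2 and 33.2 CPM in C1q-positive cells. Hp was at 558, 635, 544 and 770.5 CPM in members and at 14.8, 54.2, 8.93 and 20.3 CPM in C1q-positive cells. Every library thus showed all 3 markers higher in members, with no overlap between the values of the cell groups. None of the 3 was found in 9.58%, 10.0%, 13.1% and 12.7% of members, and all 3 together in 38.7% (95% exact binomial interval 35.3% to 42.1%) of baseline members and 49.6%, 40.8% and 39.3% of infarct members. Among C1q-positive cells all 3 were found in 0.749%, 2.14%, 0.599% and 0.547%. These intervals cover counting error only.

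The members without any Vcan, Chil3 or Hp UMI, 79, 61, 63 and 43 cells, included most of the members that carried plasmacytoid dendritic cell markers. At least 3 UMIs of Siglech, Ccr9, Cox6a2 and Klk1 together were found in 29, 23, 18 and 12 members (3.52%, 3.79%, 3.75% and 3.55%), and 29, 21, 16 and 11 of those held no Vcan, Chil3 or Hp UMI. These plasmacytoid-marker members held Siglech, a lectin of that lineage, at 1562 to 2061 CPM and the transcription factor Tcf4 at 1294 to 2458 CPM, while Csf1r stood at 31.6 to 68.4 CPM in them. Ly6c2 and Plac8 alone thus also admitted cells with plasmacytoid markers, in a similar share of every library. At least 3 UMIs of dendritic markers (Flt3, Cd209a, Xcr1, Clec9a, Zbtb46, Ccr7, Fscn1) were found in 70, 39, 29 and 28 members, of endothelial markers (Cdh5, Egfl7, Flt1, Kdr, Cldn5) in 44, 11, 14 and 4, of B cell markers in 5, 3, 4 and 6. A UMI of Flt1 was found in 209 baseline members, and of Cdh5, Egfl7, Kdr and Cldn5 in 14, 7, 10 and 8. The endothelial count thus leans on Flt1 at baseline, and how many of its members are endothelial cells was not tested. Granulocyte markers reached that number in 0, 3, 2 and 2 members, fibroblast markers in 0, 1, 0 and 2, and T or NK cell markers in 1, 0, 0 and 1. Of the 7 granulocyte markers (Retnlg, Cxcr2, Ly6g, Ngp, Camp, Ltf, Stfa2l1), 5, 2, 1 and 4 were at 0 in the members of the baseline library and infarct replicates 1 to 3. In all, 122, 61, 50 and 46 members held markers of at least 1 of these classes, and some results below are also given without them. Non-classical monocytes were not counted among these classes. At least 3 UMIs of 7 non-classical markers together were found in 584 of 825 baseline members. In infarct replicates 1, 2 and 3 they were found in 237 of 607, 240 of 480 and 209 of 338 members, a lower share in each. The 7 markers included Nr4a1, of which 79.4% of baseline members and 63.6%, 72.9% and 82.2% of infarct members held a UMI. Among baseline members a UMI of Adgre4 was found in 44.8%, Spn in 43.0%, Ace in 27.5%, Treml4 in 16.2%, Eno3 in 8.85% and Cd300e in 2.55%. These counts thus lean on Nr4a1 and do not show that most members held the whole marker set.

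Just outside the Ly6c2 limit, the 163, 174, 99 and 70 cells with 1 Ly6c2 UMI and at least 1 Plac8 UMI held Ccr2 at 1239, 1733, 1216 and 1202 CPM and Hp at 318, 449, 262 and 425 CPM. Just inside it, the 94, 120, 71 and 54 cells with 2 Ly6c2 UMIs held Ccr2 at 1369.8, 1734, 1539 and 1605 CPM and Hp at 489, 549.7, 516 and 575 CPM. Hp was higher inside the limit in every library, and Ccr2 was higher inside it in all but infarct replicate 1, where it was nearly equal.

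Members made up 8.06% (7.54% to 8.60%) of baseline cells and 5.84% (5.40% to 6.31%), 4.45% (4.07% to 4.86%) and 3.34% (3.00% to 3.71%) of infarct replicates 1, 2 and 3, giving a mean of 4.54% ± 1.25 (SD, n = 3) after infarction. The baseline library lay above all 3 infarct libraries, and the infarct libraries did not overlap one another in these intervals. With every cell thinned to 2000 UMIs before gating the shares were 4.83% at baseline and 2.34%, 2.52% and 1.94% after infarction, so the baseline stayed above the infarct libraries while the order of infarct replicates 1 and 2 changed. No test was possible with 1 baseline library, and a share of sorted cells moves with the number of macrophages as well as with the number of monocytes. Cells with Ly6c2 and Plac8 at the same limits but with C1q at or above the limit numbered 107 at baseline and 235, 189 and 126 after infarction. Members were thus 88.5% of all Ly6c2 and Plac8 cells at baseline and 72.1%, 71.7% and 72.8% after infarction.

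**Figure D1:**
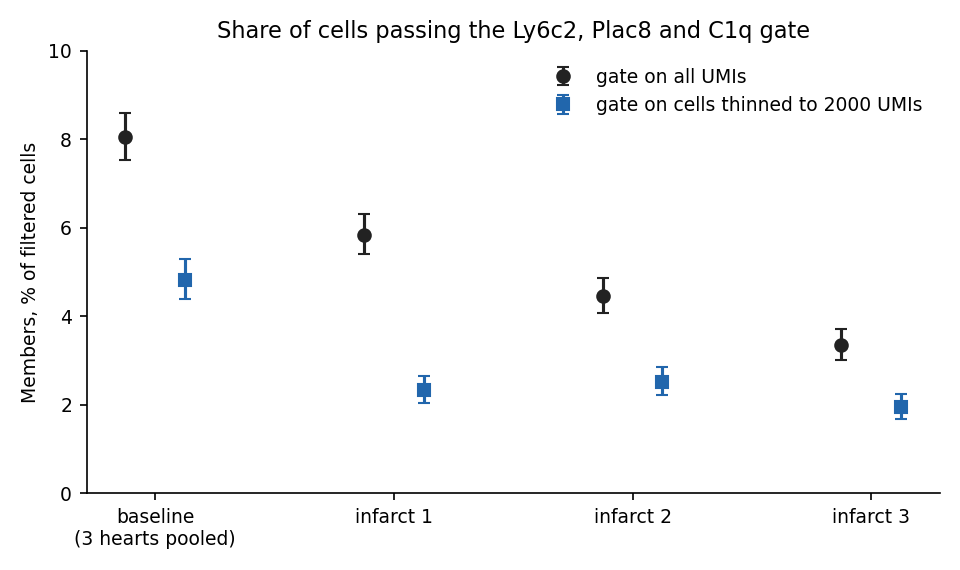
Share of filtered cells that passed the gate in each library, in percent, with exact 95% binomial intervals, for the gate on all UMIs (circles) and on cells thinned to 2000 UMIs (squares). The baseline library, at 8.06% and 4.83%, lies above the infarct libraries under both gates.

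Members were compared with the C1q-positive cells of the same heart in the 3 infarct libraries, to show how these monocytes differ from the C1q-expressing cells beside them. In the members, genes of classical monocyte identity were higher and genes of macrophage differentiation lower. With edgeR's quasi-likelihood test on summed counts, paired by library and with Benjamini-Hochberg adjustment, 1956 of 12937 genes (15.1%) were higher and 1766 (13.7%) lower at an adjusted p below 0.01, and the median log2 fold change over all genes was -0.05. Genes that vary from cell to cell with Ly6c2, Plac8 or C1q differ between these groups through the way the groups were chosen, so the p-values measure how steady a difference was over the 3 hearts. Parentheses after a gene give its log2 fold change ± SE and its adjusted p from this test, and baseline values are given beside it without a test. The SE is the size of the log2 fold change divided by the square root of the test's F statistic, and not the spread of the 3 hearts.

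Of 17 monocyte identity genes 16 were higher in members, against 15.1% of all genes, with a median log2 fold change of 2.44. Vcan (log2 5.10 ± 0.16, adjusted p = 1.53e-06), Hp (log2 4.91 ± 0.43, adjusted p = 8.71e-05) and Chil3 (log2 4.36 ± 0.27, adjusted p = 1.65e-05) were all higher. Ccr2 was at 1726, 1592 and 1578 CPM in infarct members and 632, 407 and 445 CPM in C1q-positive cells (log2 1.76 ± 0.0998, adjusted p = 1.14e-05), and baseline members, at 1549 CPM, held a similar level. Ifitm6, an interferon-induced transmembrane protein of monocytes (log2 3.96 ± 0.36, adjusted p = 0.000106) was higher, as were the calcium-binding proteins S100a4 (log2 2.54 ± 0.13, adjusted p = 6.78e-06) and S100a6 (log2 2.22 ± 0.12, adjusted p = 9.31e-06) and the glutathione reductase gene Gsr (log2 3.42 ± 0.15, adjusted p = 4.65e-06). Lyz2, lysozyme, differed least, with 16917, 18242 and 19916 CPM in members and 13288, 13946 and 15315 CPM in C1q-positive cells (log2 0.39 ± 0.041, adjusted p = 0.000219). Fibronectin, Fn1, did not pass the test, at 1616, 1226 and 1193 CPM in members and 1341, 268 and 818 CPM in C1q-positive cells (log2 1.00 ± 0.33, adjusted p = 0.0391), while at baseline it stood at 2189 and 213 CPM.

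Among the 10 genes with the highest log2 fold change above 50 CPM were Dmkn (5.47), Vcan, Gm9733 (4.94), Hp, S100a8 (4.70), S100a9 (4.57), Chil3, Ifitm1 (4.31) and Ifitm6. Dmkn, a secreted protein best known from skin, was at 147, 124 and 49.0 CPM in infarct members and at 4.05, 2.61 and 0.89 CPM in C1q-positive cells, and at 8.70 CPM in baseline members. Gm9733 was at 154, 83.7, 120.0 and 151 CPM in the members of the 4 libraries and at 5.88, 5.99, 3.35 and 2.49 CPM in C1q-positive cells, so its difference was present in every library. Other secreted and granule genes were higher too, with 10 of 13 past the test, against 15.1% of all genes. They included the siderophore-binding lipocalin Lcn2 (log2 6.63 ± 0.15, adjusted p = 5.14e-07), the collagenase Mmp8 (log2 4.74 ± 0.14, adjusted p = 1.29e-06) and the surface antigen Cd177 (log2 5.41 ± 0.21, adjusted p = 3.9e-06). All are better known from neutrophils.

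**Figure D2:**
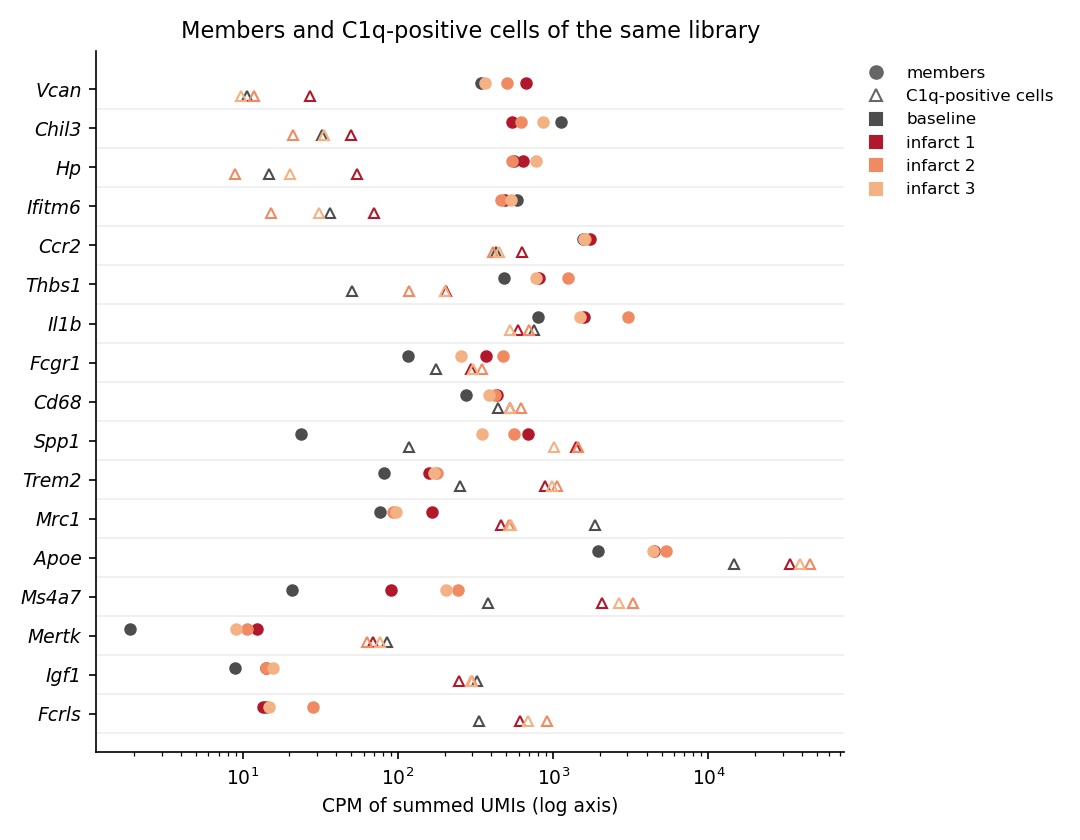
CPM of summed UMIs (log axis) of 17 genes in members (filled circles) and in C1q-positive cells (open triangles) of each library. Monocyte genes from Vcan to Thbs1 lie to the right in members and Trem2, Apoe, Ms4a7, Mertk, Igf1 and Fcrls to the left in all 4 libraries, while Il1b is apart only in the infarct libraries and Fcgr1 overlaps.

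Of 23 macrophage differentiation genes 22 were lower in members, against 13.7% of all genes, with a median log2 fold change of -2.11. The microglia-associated receptor gene Fcrls had the lowest log2 fold change of the named genes, at 13.6, 28.5 and 14.7 CPM in infarct members and 615, 915 and 687 CPM in C1q-positive cells (log2 -5.30 ± 0.12, adjusted p = 5.14e-07). Apoe, the lipid carrier, was at 4489, 5306 and 4401 CPM in members and 33364, 45326 and 39052 CPM in C1q-positive cells (log2 -3.03 ± 0.0605, adjusted p = 5.14e-07). Mertk, the receptor for apoptotic cells, was at 12.4, 10.7 and 9.10 CPM in members and 68.7, 63.1 and 76.6 CPM in C1q-positive cells (log2 -2.64 ± 0.13, adjusted p = 6.28e-06). Trem2, a lipid-sensing receptor, Ms4a7, a membrane-spanning protein of macrophages, and Ctsd, cathepsin D, had log2 fold changes of -2.51, -3.96 and -2.41. The high-affinity IgG receptor Fcgr1 was the 1 gene of the list that did not pass, at 367, 473 and 256 CPM in members and 296, 345 and 306 CPM in C1q-positive cells (log2 0.19 ± 0.13, adjusted p = 0.269). The other genes with the lowest log2 fold changes were the chemokine Ccl8 (-4.89), the Mertk ligand Gas6 (-4.53), the collagen Col14a1 (-4.34), the tetraspanin Cd81 (-4.30), the growth factor Igf1 (-4.24), Olfml3 (-4.20), Serpinb6a (-4.04), Ms4a7 and the prostaglandin D synthase Hpgds (-3.82).

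The same genes were read in B cells, which are not known to make them, as a reference for RNA from other cells in the droplets. B cells were taken as cells with at least 3 UMIs of Cd79a, Cd79b and Ms4a1 together and no UMI of the fibroblast or endothelial markers, and there were 79, 21, 9 and 35 of them. They held Cd79a, a chain of the B cell receptor, at 2444, 1341, 1143 and 1876 CPM. C1qa was at 152 CPM in baseline B cells and 65.4, 73.7 and 173 CPM in infarct B cells, and at 87.0, 119.9, 115 and 107 CPM in members. Both the B cells and the members were held under the C1q limit, so C1qa gives no free reading of RNA from other cells. Apoe was at 1199 CPM in baseline B cells and 6868, 24182 and 5286 CPM in infarct B cells, so the members lay above the B cells at baseline and below them in each infarct library. Ms4a7, at 204, 387 and 472 CPM in infarct B cells, was also above the infarct members. Fcgr1 was at 196, 239.6 and 152 CPM in infarct B cells, below the members of each library. The B cells were few, and 1 cell held 28.1%, 42.0% and 18.9% of their Apoe UMIs in the infarct libraries. How much free RNA and B cells caught with another cell add to these values was not tested.

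Cells with Ly6c2 and Plac8 at the gate's limits were also ordered by C1q. In infarct replicate 1, Vcan was at 702 CPM in cells with under 10 C1q UMIs per 10000, 405 CPM from 20 to under 30, 352 CPM from 30 to under 40 and 96.5 CPM at 100 and over. Apoe in the same bands was at 4026, 7644, 9507 and 23063 CPM. Ccr2 was at 1729, 1690.1, 1846 and 1090.5 CPM. Vcan was thus lower and Apoe higher in each further band of that library, with no jump at the limit. The cells of these bands had a median of 8907, 9789.5, 11201 and 12674 UMIs, so depth was higher with C1q as well. How much droplets that caught more than 1 cell add to the bands with more C1q was not tested. In infarct replicate 3, Ms4a7 stood at 82.3 CPM just below the limit and at 1136 CPM just above it, and in infarct replicate 2 at 394 and 1070.0 CPM. The bands from 20 to under 30 held 8, 40, 15 and 11 cells and those from 30 to under 40 held 13, 28, 14 and 12 cells, so values next to the limit rest on few cells. C1q itself set these bands, and no test was made along them.

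**Figure D3:**
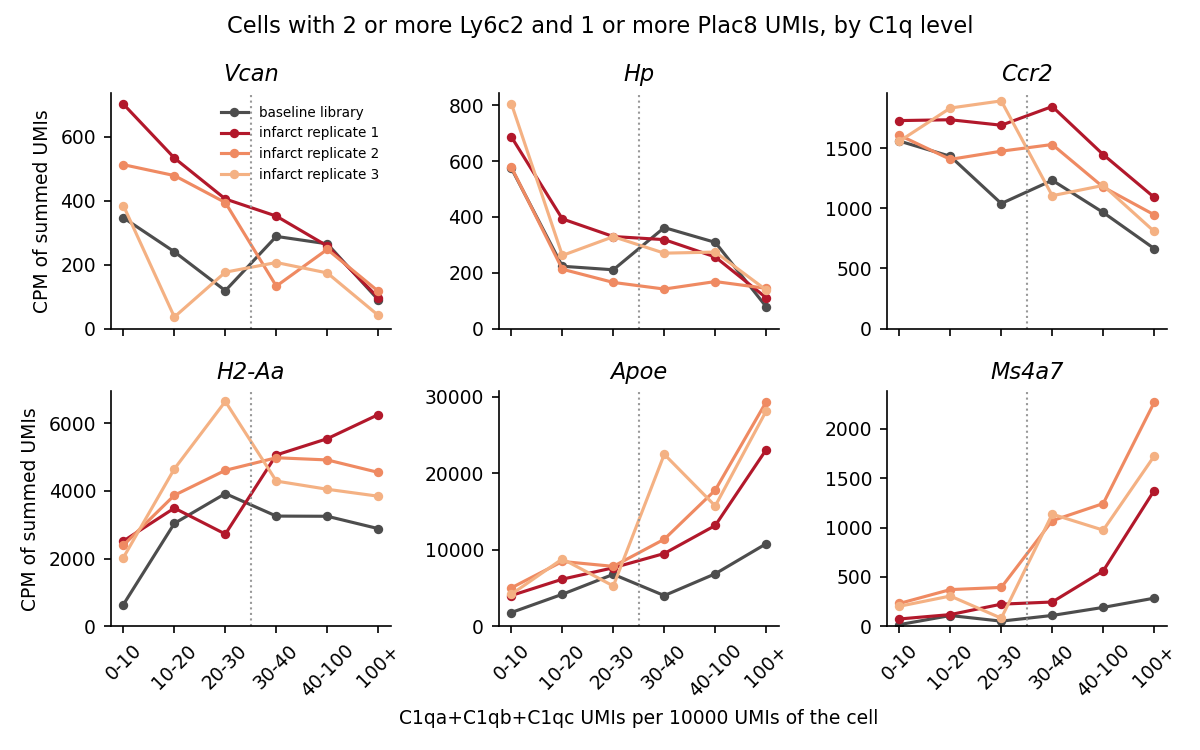
CPM of summed UMIs of 6 genes in cells with at least 2 Ly6c2 and 1 Plac8 UMIs, by C1q UMIs per 10000 UMIs of the cell, with a dotted line at the gate's C1q limit of 30. Vcan and Hp are highest in the first band in all 4 libraries, and Apoe and Ms4a7 are highest in the last band in all 4 libraries.

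Genes for entering and moving through tissue were split. Of 18 trafficking genes 8 were higher and 5 lower in members. For this and the later lists of this comparison, the shares over all genes were 15.1% higher and 13.7% lower. The beta7 and alphaL integrin chains Itgb7 (log2 3.27 ± 0.19, adjusted p = 1.34e-05) and Itgal (log2 3.16 ± 0.16, adjusted p = 8.26e-06) and the alpha4 chain Itga4 (log2 1.27 ± 0.11, adjusted p = 0.0001) were higher. The alpha6 chain Itga6 (log2 -2.84 ± 0.12, adjusted p = 3.9e-06), the beta5 chain Itgb5 (log2 -1.65 ± 0.0905, adjusted p = 1.01e-05) and the fractalkine receptor Cx3cr1 (log2 -1.84 ± 0.12, adjusted p = 1.85e-05) were lower. Itga5, the fibronectin receptor chain that the study followed in macrophages, did not pass the test, at 48.0, 40.2 and 44.1 CPM in infarct members and a mean of 45.5 CPM in C1q-positive cells (log2 -0.03 ± 0.0799, adjusted p = 0.759), and was at 34.5 CPM in baseline members.

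Of 19 cytokine and chemokine genes 10 were higher and 5 lower in members. Il1b, interleukin-1 beta, was at 1570.2, 3014 and 1484 CPM in infarct members and 596, 697 and 526 CPM in C1q-positive cells (log2 1.68 ± 0.13, adjusted p = 5.15e-05). Il1rn, its receptor antagonist (log2 1.42 ± 0.0798, adjusted p = 1.11e-05), oncostatin M, Osm (log2 1.44 ± 0.13, adjusted p = 9.24e-05), and the monocyte chemoattractant Ccl2 (log2 1.21 ± 0.0613, adjusted p = 7.39e-06) were higher too. Tnf (log2 -2.00 ± 0.16, adjusted p = 4.99e-05) and the chemokines Ccl12 (log2 -2.62 ± 0.16, adjusted p = 1.55e-05), Ccl4 (log2 -1.16 ± 0.18, adjusted p = 0.00131) and Ccl3 (log2 -1.08 ± 0.14, adjusted p = 0.000498) were lower. Of 14 measured hypoxia and glycolysis genes 10 were higher and none lower, with a median of 0.93. Hif1a, the oxygen-regulated transcription factor (log2 1.42 ± 0.13, adjusted p = 0.0001), Pgk1 (log2 1.13 ± 0.12, adjusted p = 0.00022), Pkm (log2 1.14 ± 0.0984, adjusted p = 8.17e-05) and the glucose transporter Slc2a1 (log2 1.58 ± 0.16, adjusted p = 0.000196) were among them. Without the pairing by library 3 of the 14 passed, and of the cytokine genes 6 were then higher and 2 lower. Arg1, arginase 1, did not pass, at 122, 144 and 71.1 CPM in members and 417, 62.4 and 271 CPM in C1q-positive cells (log2 -0.85 ± 0.56, adjusted p = 0.259).

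Of 12 cell cycle genes 9 were lower and none higher. Mki67 was at 18.0, 26.8 and 17.9 CPM in infarct members and 38.1, 40.6 and 56.3 CPM in C1q-positive cells (log2 -1.05 ± 0.18, adjusted p = 0.00217). Cdk1 was at 2.65, 6.82 and 2.80 CPM against 12.5, 16.9 and 15.9 CPM (log2 -1.87 ± 0.24, adjusted p = 0.000518). Of 16 interferon response genes 7 were higher and none lower, led by Ifi205 (log2 2.09 ± 0.20, adjusted p = 0.000127) and Ly6a (log2 1.52 ± 0.17, adjusted p = 0.000321). Without the pairing 5 cell cycle genes were lower and 3 interferon genes higher. Of 15 myeloid transcription factors 7 were higher, among them Cebpb (log2 1.22 ± 0.0951, adjusted p = 4.88e-05), Irf4 (log2 1.20 ± 0.18, adjusted p = 0.00114) and Nr4a1 (log2 1.22 ± 0.15, adjusted p = 0.000434). Irf4 did not pass with thinned cells (adjusted p = 0.167), against all other cells or without the pairing. Another 4 were lower, among them Maf (log2 -1.88 ± 0.14, adjusted p = 4.43e-05), Cebpa (log2 -1.19 ± 0.0882, adjusted p = 3.77e-05) and Id2 (log2 -1.02 ± 0.18, adjusted p = 0.0025). Of 15 matrix and repair genes 6 were higher, with the matricellular protein Thbs1 (log2 2.44 ± 0.27, adjusted p = 0.000277) and the integrin ligand Tgfbi (log2 1.34 ± 0.10, adjusted p = 4.99e-05) beside Vcan. Another 5 were lower, with Timp2 (log2 -2.78 ± 0.0676, adjusted p = 5.19e-07) and Pdgfb (log2 -3.14 ± 0.13, adjusted p = 3.9e-06). Of 10 immediate-early genes, which also respond to tissue digestion, 2 were higher and 3 lower. Of the 12 non-classical monocyte genes 7 were higher, led by angiotensin-converting enzyme, Ace (log2 3.52 ± 0.29, adjusted p = 6.31e-05), and 2 lower, Cx3cr1 and the scavenger receptor Cd36 (log2 -1.70 ± 0.17, adjusted p = 0.00017). Of the marker lists of other classes, all 4 plasmacytoid markers, 4 of 6 dendritic, 2 of 4 endothelial and the 1 granulocyte marker with enough counts were higher in members. Of the rest, 1 of 5 B cell markers was lower, none of 4 fibroblast markers passed, and no T or NK cell marker had enough counts.

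The members of infarcted hearts were then set beside those of uninjured hearts. This comparison has no test, and a gene was counted when all 3 infarct libraries lay on the same side of the baseline library and the infarct mean differed from it at least 2-fold. Of the 3087 genes whose mean level reached 50 CPM, 94 (3.05%) were higher and 154 (4.99%) lower after infarction, and the median log2 ratio was -0.07. After scaling by TMM (trimmed mean of M-values) the median was 0.06 and the counts were 125 and 97, so the balance between higher and lower genes depends on the scaling. Most MHC class II and macrophage differentiation genes and part of the cytokine and hypoxia genes were counted as higher in infarct members, and 4 of 7 non-classical monocyte genes as lower.

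MHC class II genes, which present peptides to T cells, were higher in infarct members, with 6 of 7 counted against 3.05% of all genes and with a median log2 ratio of 1.49. H2-Aa was at 763 CPM (95% Poisson interval 742 to 784) in baseline members and at 2609, 2555 and 2270.1 CPM in infarct members (log2 ratio 1.70). H2-Ab1 was at 731 against 2549.7, 2454 and 2218 CPM, H2-Eb1 at 497 against 1567, 1649.9 and 1541 CPM, and the invariant chain Cd74 at 2349.8 against 6812, 6769.9 and 6187 CPM. Ciita, the class II transactivator, was at 50.7 against 129, 113 and 87.2 CPM and H2-DMb1, a peptide-loading chain, at 174 against 421, 417 and 384 CPM. The 3 infarct libraries all lay above the baseline for each of the 7 genes, and H2-DMa, at 328 against 454, 489 and 435 CPM, was the 1 gene below 2-fold. In C1q-positive cells all 7 were lower in each infarct library than at baseline. There H2-Aa was at 5209.6 CPM at baseline and 3990.2, 3523 and 3197 CPM after infarction (log2 ratio -0.55), and the median over the 7 genes was -0.60. The log2 difference of members from C1q-positive cells was -2.77 at baseline and -0.51 after infarction for H2-Aa, and the change between the conditions could not be tested. Within the infarct libraries H2-Eb1 (log2 -0.89 ± 0.059, adjusted p = 2.32e-05), H2-Aa, H2-Ab1 and Cd74 were lower in members than in C1q-positive cells, and H2-DMa, H2-DMb1 and Ciita (log2 0.78 ± 0.11, adjusted p = 0.000785) were higher. Without the members that held markers of other classes H2-Aa was at 613 CPM at baseline and 2400.0, 2391 and 1935 CPM after infarction (log2 ratio 1.87).

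**Figure D4:**
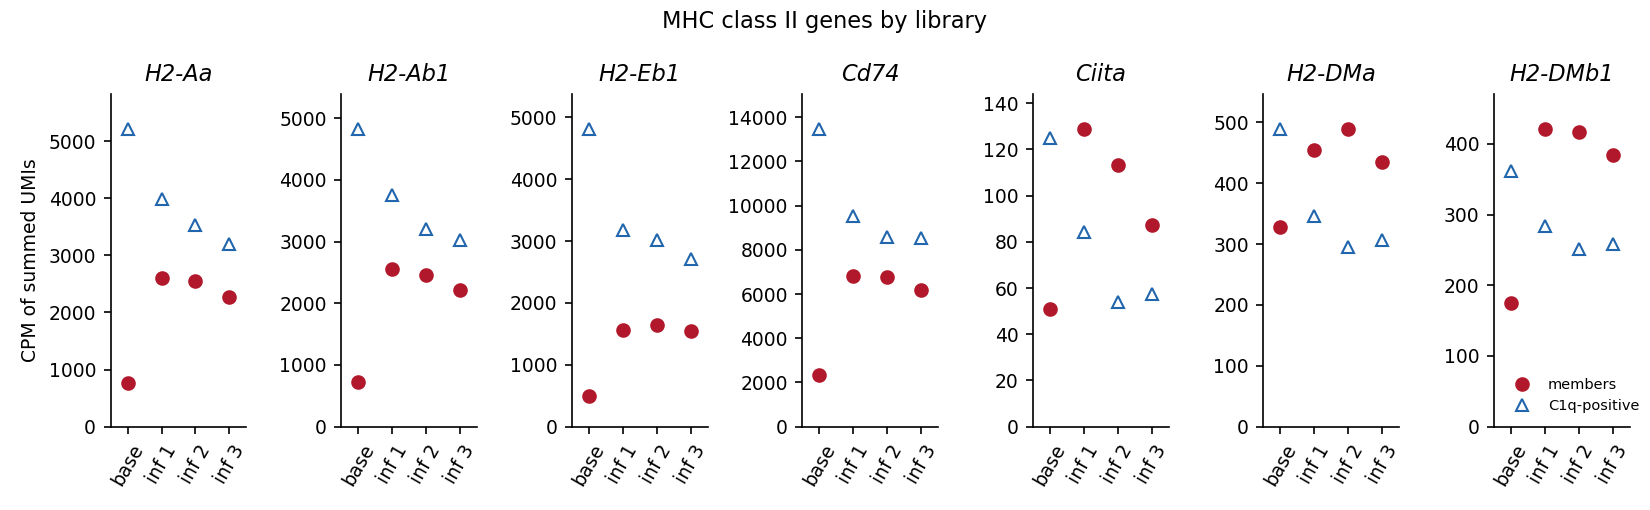
CPM of summed UMIs of the 7 MHC class II genes in members (filled circles) and C1q-positive cells (open triangles) of each library, each axis starting at 0. Infarct members lie above baseline members for every gene, while infarct C1q-positive cells lie below baseline C1q-positive cells.

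The class II genes are known to share promoter elements, among them a Y box, through which Ciita acts with other factors. The 150 bases before the start site are shown because these genes differed together between the groups. They are from RefSeq on GRCm38.p6 (4 of the 7 genes matched), 5′ to 3′ along each gene. Capitals mark GATTGG or, where it lies on the other strand, CCAATC, which holds the core of the Y box.
H2-Aa: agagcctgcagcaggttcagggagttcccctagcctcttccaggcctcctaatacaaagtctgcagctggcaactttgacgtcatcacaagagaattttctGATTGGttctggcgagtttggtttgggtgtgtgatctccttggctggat
H2-Eb1: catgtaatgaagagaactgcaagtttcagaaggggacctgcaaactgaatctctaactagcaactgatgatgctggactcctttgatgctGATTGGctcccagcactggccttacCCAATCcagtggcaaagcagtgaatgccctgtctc
H2-DMb1: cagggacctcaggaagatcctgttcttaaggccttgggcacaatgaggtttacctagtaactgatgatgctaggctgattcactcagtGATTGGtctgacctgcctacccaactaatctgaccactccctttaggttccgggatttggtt
They lie at chr17:34287824-34287973 (minus strand), chr17:34305717-34305866 (plus strand) and chr17:34153041-34153190 (plus strand). Searched on both strands, GATTGG was found in 3 of the 4 matched class II genes (H2-Aa, H2-Eb1 and H2-DMb1, but not H2-DMa), first beginning 49, 60 and 62 bases before the start site, and in 10.9% of all 32851 promoter windows of this length. A match is a match of letters and shows no binding.

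Of the macrophage differentiation genes 11 of 19 were counted as higher in infarct members against 3.05% of all genes and 1 as lower. The median log2 ratio over the 19 genes was 1.09 in members and 0.84 in C1q-positive cells. The list was thus higher after infarction in both cell groups. Spp1, osteopontin, was at 23.9 CPM in baseline members and 684, 556 and 349.7 CPM in infarct members (log2 ratio 4.47). A few cells carried most of it, with 10 members holding 60.7%, 70.4% and 82.3% of the Spp1 UMIs of infarct replicates 1, 2 and 3. Ms4a7 was at 20.9 against 90.4, 245 and 204 CPM, Ctsd at 157 against 631, 449 and 515 CPM, the lysosomal protease legumain, Lgmn, at 121 against 458, 517 and 363 CPM, and Fcgr1 at 116 against 367, 473 and 256 CPM. For each of these all 3 infarct libraries lay above the baseline library. In B cells Spp1 was at 7.24 CPM at baseline and 57.2, 221 and 1025 CPM after infarction and Lgmn at 61.6 against 613, 848 and 499 CPM, so that the B cells also held more of both in the infarct libraries, and 1 B cell held 79.9% of the Spp1 UMIs of infarct replicate 3. The part of free RNA in the members' difference was not tested. Lpl, lipoprotein lipase, was the gene counted as lower, at 231 against 54.1, 46.5 and 77.7 CPM.

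Ccr1, a receptor for inflammatory chemokines, was at 54.3 CPM in baseline and 305, 248 and 162 CPM in infarct members (log2 ratio 2.13). B cells held it at 172, 73.7 and 108 CPM after infarction, below the members of each library. Ccr2 did not differ in the same way, with a log2 ratio of 0.08. Itga4 (-1.80) and Itgal (-1.09) were lower in infarct members, with Itga4 at 1031 against 257, 225 and 406 CPM. Itga4 was also lower after infarction in C1q-positive cells, at 243 against 135, 94.4 and 136 CPM. In B cells it was at 836 against 294, 166 and 363 CPM. The lower Itga4 was thus not particular to members, and with 1 baseline library the library and the condition cannot be told apart. Of the 16 trafficking genes above 50 CPM, 3 were counted as higher, with Itgb5 among them, and 3 as lower, of which 1 was left after TMM scaling. For this and the later lists of infarct against baseline members, the shares over all genes were 3.05% higher and 4.99% lower.

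Of 14 cytokine genes above 50 CPM, 7 were counted as higher, among them Il1b at 793 against 1570.2, 3014 and 1484 CPM, Ccl2 at 142 against 602, 572 and 424 CPM, and Cxcl2 at 157 against 404, 641 and 502 CPM. Il1b was highest in infarct replicate 2, and without that library 3 of 13 genes were counted. The brake on NF-kappaB signalling Tnfaip3, at 94.1 against 33.4, 44.8 and 45.9 CPM, was counted as lower, but not with cells thinned to 2000 UMIs (log2 ratio -0.71). The 9 hypoxia and glycolysis genes above 50 CPM had a median log2 ratio of 0.93 in members and 0.82 in C1q-positive cells. Against 3.05% of all genes, 4 of the 9 were counted as higher in members, which were Hif1a (123 against 429.6, 358 and 245 CPM), Ldha (196 against 709, 442 and 379.8 CPM), Gapdh (709 against 1871, 1469.7 and 1139 CPM) and Arg1. For 3 of these, Hif1a, Ldha and Gapdh, infarct replicate 1 was the highest library. Egln3, a hypoxia-induced hydroxylase below the level limit, was at 1.01 CPM at baseline and 48.2, 4.87 and 0.7 CPM after infarction, highest in infarct replicate 1.

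**Figure D5:**
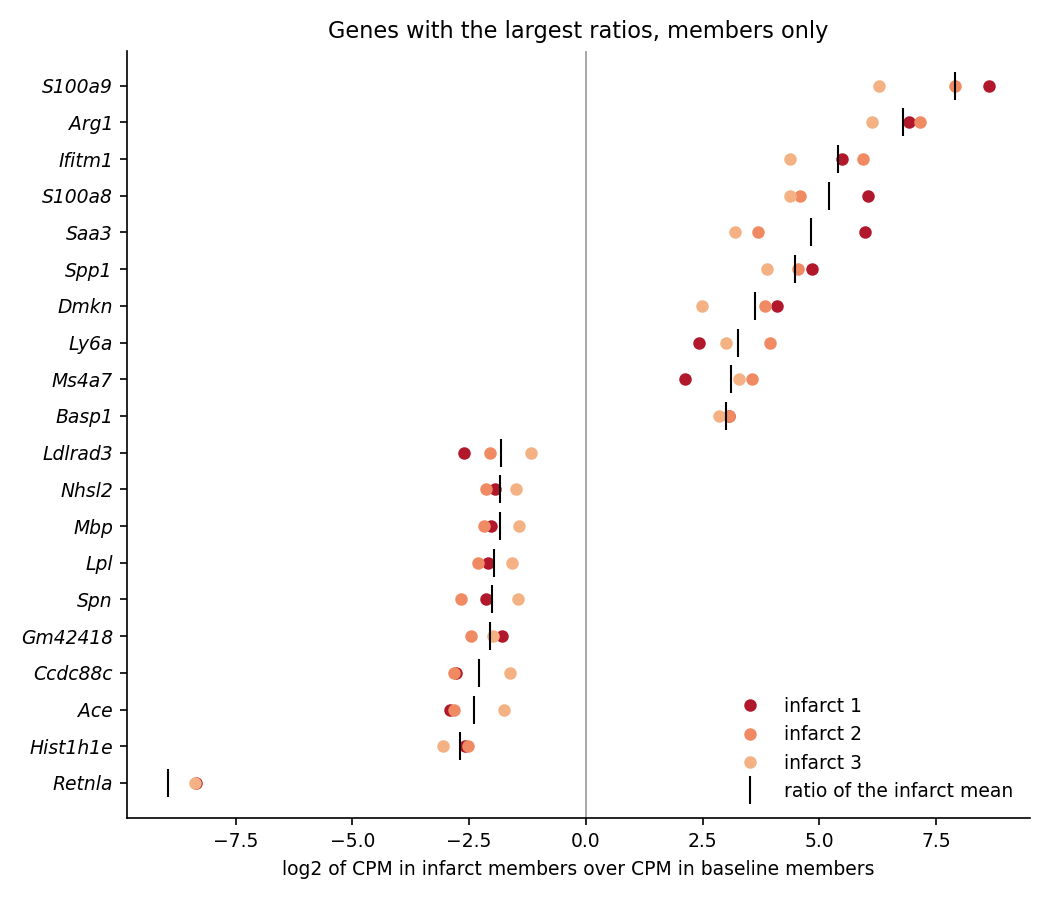
log2 ratio of CPM in infarct members to CPM in baseline members for the 10 highest and 10 lowest genes, with 1 point per infarct library and a bar at the ratio of the infarct mean. All points of a gene lie on 1 side of 0. Retnla has no point for infarct replicate 2, where it had no UMI in members.

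The 10 highest ratios belonged to S100a9 (7.90), Arg1 (6.79), Ifitm1 (5.40), S100a8 (5.20), Saa3 (4.83), Spp1, Dmkn (3.62), Ly6a (3.26), Ms4a7 and Basp1 (3.00). The alarmins S100a8 and S100a9 rested on few cells. S100a9 was at 1.16 CPM (8 UMIs) in baseline members and 459, 279.5 and 90.0 CPM in infarct members, and 1 member held 45.8%, 82.1% and 36.6% of the S100a9 UMIs of infarct replicates 1, 2 and 3. Without the members that held markers of other classes S100a9 was at 470.0, 2.48 and 27.3 CPM and S100a8, at 457, 168 and 144 CPM with them, at 487, 14.6 and 85.0 CPM. Infarct replicate 2 thus lost most of both, infarct replicate 3 lost most of its S100a9 and part of its S100a8, and infarct replicate 1 lost neither. The S100a9 difference from C1q-positive cells then no longer passed edgeR's test (log2 fold change 2.53, adjusted p = 0.102). At a depth of 2000 UMIs 12 of 602, 5 of 475 and 10 of 336 infarct members held an S100a9 UMI, against 4 of 823 baseline members and 0 of 73, 17, 7 and 30 B cells.

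Arg1 and Saa3, the acute-phase serum amyloid A3, were found in more members, with an Arg1 UMI in 24.4%, 11.5% and 8.88% and a Saa3 UMI in 38.2%, 8.75% and 20.1% of infarct members. Even so 10 members held 41.4%, 76.3% and 89.2% of the Arg1 UMIs and 63.1%, 87.9% and 54.3% of the Saa3 UMIs. Arg1 was at 1.01 CPM (7 UMIs) in baseline members and 122, 144 and 71.1 CPM in infarct members, a ratio of 111 with a range of 53.8 to 276 from the baseline count alone. In the infarct B cells Arg1 was at 131, 0 and 81.3 CPM and Saa3 at 221, 18.4 and 721 CPM, beside 340.4, 68.7 and 49.0 CPM of Saa3 in members, and 1 B cell held 91.0% of the Saa3 UMIs of infarct replicate 3. The part of free RNA was not tested. Ifitm1 was at 7.97 CPM in baseline members and 356, 491 and 165 CPM in infarct members. Its level was higher in the infarct members with dendritic markers, at 1089, 1723 and 916 CPM, and without members that held markers of other classes it stood at 285, 376 and 75.3 CPM. Ly6a, the stem cell antigen Sca-1 and an interferon-induced gene, was at 31.7 CPM in baseline members and 169, 487 and 255 CPM in infarct members (log2 ratio 3.26). Without members that held markers of other classes it was at 14.2 against 118, 379.7 and 233 CPM (log2 ratio 4.10).

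Of 12 interferon response genes 2 were counted as higher, Isg15 (135 against 233, 645 and 239 CPM) and Ly6a. Infarct replicate 2 held the highest level of Isg15, Ifit3, Irf7 and Zbp1, and infarct replicate 1 lay near the baseline for Irf7 (131 against 139, 331 and 190.1 CPM), and infarct replicates 1 and 3 lay below it for Ifit3 (67.0 against 32.5, 136 and 42.4 CPM). Of 8 matrix and repair genes 2 were counted as higher, Tgfbi (609.7 against 1421, 1586 and 969 CPM) and Ecm1 (25.2 against 91.7, 116 and 56.4 CPM), and without infarct replicate 2 neither was counted, as Tgfbi then lay just under 2-fold and Ecm1 just under the level limit, still over 2-fold. No cell cycle gene reached 50 CPM. Of 10 immediate-early genes none was counted in either direction.

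Genes of non-classical monocytes were lower in infarct members, with 4 of 7 counted as lower against 4.99% of all genes. The median log2 ratio over the 7 genes was -1.18 in members and 0.17 in C1q-positive cells. Over the 4 non-classical markers above 50 CPM it was -1.90 in members and -1.09 in C1q-positive cells, so the markers were lower after infarction in both cell groups. In C1q-positive cells Ace was at 16.2 CPM at baseline and 2.25 and 1.16 CPM in infarct replicates 1 and 2. Adgre4 was likewise at 51.6 against 16.9 and 6.57 CPM there, while Spn was at 38.0 against 44.9 CPM in infarct replicate 1. Ace was at 109 CPM in baseline members and 14.5, 15.3 and 32.2 CPM in infarct members (log2 ratio -2.39). Spn, the sialophorin CD43 that marks non-classical monocytes, was at 111 against 25.3, 17.3 and 40.3 CPM (-2.00), the adhesion receptor Adgre4 at 130.3 against 34.6, 34.8 and 42.4 CPM (-1.81), and Ceacam1 at 106 against 49.8, 37.5 and 53.2 CPM (-1.18). Infarct replicate 3 lay nearest to the baseline for all 4. Nr4a1, the regulator of that lineage, was at 372 against 221, 306 and 395 CPM, and infarct replicate 3 lay just above the baseline. Without members that held markers of other classes, among which non-classical monocytes were not counted, Ace was at 114 against 16.4, 16.0 and 36.2 CPM. The share of members that held non-classical markers was higher at baseline, and its part in these differences was not tested.

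The 10 lowest ratios belonged to Retnla (-8.94), Hist1h1e (-2.70), Ace, Ccdc88c (-2.29), Gm42418 (-2.06), Spn, Lpl, Mbp (-1.84), Nhsl2 (-1.84) and Ldlrad3 (-1.82). Retnla, a secreted protein of alternatively activated macrophages, was at 115 CPM in baseline members and 0.353, 0 and 0.35 CPM in infarct members. Of 794 Retnla UMIs in baseline members 1 member held 40.8% and 10 members 88.8%. Retnla was at 36.2 CPM in baseline B cells and 696 CPM in baseline C1q-positive cells. The linker histone gene Hist1h1e was at 360.3 against 60.2, 63.1 and 43.4 CPM in members and at 259 against 56.1, 54.4 and 68.2 CPM in C1q-positive cells. Gm42418, which overlaps ribosomal RNA, was at 31436 against 9008, 5704 and 7918 CPM in members and 48826 against 15691, 10733 and 13532 CPM in C1q-positive cells. Both genes were lower in the infarct libraries in members and in C1q-positive cells, and with 1 baseline library the library and the condition cannot be told apart. Ccdc88c was at 197 against 28.6, 28.0 and 64.1 CPM and Mbp at 217 against 52.8, 47.7 and 80.9 CPM, with infarct replicate 3 nearest to the baseline for both. Klf2, a transcription factor of quiescent circulating leukocytes, was at 1325 against 523, 513 and 638 CPM in members and at 1140.2 against 377, 301 and 265 CPM in C1q-positive cells.

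Of 17 monocyte identity genes none was counted as higher and 1 as lower, beside 3.05% and 4.99% of all genes, so these counts do not set the list apart. All 3 infarct libraries lay above the baseline for 6 of the 17 genes and below it for 8, and the median log2 ratio was 0.08. Ccr2, Hp, S100a4, S100a6 and Ifitm6 had log2 ratios of 0.08, 0.22, 0.12, 0.26 and -0.25. Chil3 (1117 against 545, 623 and 861 CPM) and F13a1, coagulation factor XIII (958 against 606, 392 and 536 CPM), were lower in each infarct library without reaching 2-fold, and Thbs1 (483 against 805, 1244 and 771 CPM) was higher in each. F13a1 in C1q-positive cells was at 1543 CPM at baseline and 171, 109.7 and 148 CPM after infarction, so it was higher than in members at baseline and lower than in members after infarction.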

How the data were processed

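Single-cell RNA libraries of EGFP+ Ly6G- mouse heart cells were made with the 10x Genomics 3′ chemistry, and the deposited files hold raw UMI counts from the authors' Cell Ranger run (version 3.1.0 per the file headers, 3.0.1 in the submitters' processing notes) on mm10. No normalization had been applied. Cells with 500 to 40000 UMIs and more than 200 genes were kept. The members and the gene lists were chosen with earlier results of these data known. Counts were summed per library and cell group. Members and C1q-positive cells of the 3 infarct libraries were compared with edgeR 4.0.16 in R 4.3.3 (quasi-likelihood test, TMM, its filter on low counts, library as a block, Benjamini-Hochberg adjusted p below 0.01), with the infarct libraries each from 1 heart. Deviations of the paired sums from their group means correlated by library (r = 0.209, 0.233 and 0.253), and the pairing comes from the shared heart.

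Infarct and baseline members were compared as CPM without mitochondrial genes and without a test. A gene above a mean of 50 CPM was called when all 3 infarct libraries lay on 1 side of baseline and the mean differed 2-fold. Named genes were the top and bottom 10 of each comparison, with a mean of at least 50 CPM and the same direction in all 3 libraries, and for the edgeR test past its threshold. Gate genes, mitochondrial genes, Xist, Tsix and genes of the Y chromosome were not ranked, and any gene of the lists could also be named. Intervals on shares are exact binomial and those on baseline counts exact Poisson. Scrublet's automatic limit marked 202, 0, 0 and 1 cells, so it did not work in the infarct libraries. No cell was left out as a doublet, and as an alternative the 839, 865, 930 and 819 highest-scoring cells were left out. B cells, as a reference for free RNA, were cells outside both groups with at least 3 UMIs of Cd79a, Cd79b and Ms4a1 and none of fibroblast or endothelial markers. This definition was set after the data were seen, in place of one that also counted Ebf1 and Pax5 and had no limit on those markers. On data simulated for the member comparison with 12936 genes, edgeR recovered 26%, 60%, 88% and 84% of genes changed 1.5-, 2-, 4- and 8-fold. Alternatives were DESeq2 1.42.0, other filters, scalings, gates and left-out libraries. Python 3.11.15 with scipy 1.17.1 was used. Some genes are not reported here.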

Additional observations from a re-analysis of the deposited data

Results flagged for a closer look

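Among the genes listed or named with a mean of at least 50 CPM, past the test and with log2 ratios of at least 0.5 in size, 6 had members on the other side of the C1q-positive cells at baseline than in all 3 infarct libraries. None of these differences between the conditions was tested, since there was 1 baseline library. Ccl2 had a log2 ratio of members to C1q-positive cells of -1.48 at baseline and 1.21 after infarction. Ciita went from -1.30 to 0.78, H2-DMb1 from -1.05 to 0.63 and H2-DMa from -0.58 to 0.56, so the class II transactivator and both peptide-loading chains were lower than in C1q-positive cells at baseline and higher after infarction. F13a1 stood at -0.69 and 1.85. S100a9 stood at -3.36 and 4.57, with 8 UMIs in baseline members.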

How the results depend on the processing

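The baseline share lay above every infarct library in all settings. It was 4.83% with cells thinned to 2000 UMIs, 6.38% with at least 4 Ly6c2 UMIs, 9.15% among cells of 2000 or more UMIs, 6.87% without members holding markers of other classes and 9.1% without cells over 10% mitochondrial UMIs. The infarct mean was 2.27% thinned, 3.19% with at least 4 Ly6c2 UMIs and 3.90% to 5.15% with 1 infarct library left out. Between members and C1q-positive cells, leaving out 1 infarct library gave 1065 to 1976 higher and 1073 to 1879 lower genes, fewest without infarct replicate 2, and thinning gave 1120 lower genes among fewer genes tested. Without the replicate block 1574 genes were higher and 1627 lower. S100a9 passed neither against all other cells (edgeR adjusted p = 0.0251) nor without members holding markers of other classes. Between infarct and baseline members, a limit of 20 CPM gave 164 higher and 289 lower genes, TMM scaling 97 lower, and leaving out 1 infarct library 80 to 116 higher and 135 to 203 lower. The cause was not tested where no fewer genes or libraries entered. Thinned, the log2 ratios of Arg1, S100a8 and Spp1 were 5.87, 6.66 and 5.22. No ratio or fold change of a named gene changed sign in any setting. Over the genes named and all settings, 25 test values lost the threshold and 1184 kept their side, 12 of the 25 without the block. Irf4 did not pass with thinned cells or against all other cells. Id2 and Tnfaip3 did not pass without infarct replicate 1, nor Id2, Gapdh, Ldha, Ldlrad3 and Mbp without infarct replicate 2. Of the ratios of infarct to baseline, 33 moved and 537 did not, and those of class II genes moved upward.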
